A study of Homo sapiens with 17 samples.

Results

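The genes described here are 7 human genes of cellular iron handling whose mRNAs are known for control after transcription: the ferritin chains FTH1 and FTL, the iron exporter SLC40A1 (ferroportin), the transferrin receptor TFRC, the iron importer SLC11A2 (DMT1), and the iron regulatory proteins ACO1 (IRP1) and IREB2 (IRP2). They were chosen by name, for their function, out of 15660 genes that had a read in some library at 36 h (17023 at 72 h). All 7 had reads at both times. Ribosome footprints and mRNA were sequenced from HEK293 cells, a human line derived from embryonic kidney, which had been electroporated with a ribonucleoprotein of Cas9 or of catalytically dead dCas9. Both nucleases carried the sgIntron guide, which targets an intron of JAK2, so that dCas9 cells received the protein, the guide and the electroporation without the cut. Cells were lysed 36 or 72 h later. At 36 h there were 3 mRNA and 2 footprint libraries of Cas9 cells and 2 of each kind of dCas9 cells, and at 72 h there were 2 libraries of each kind for each nuclease, 17 libraries in all. Each replicate was a plate into which 4 electroporations had been pooled, and guides were synthetic at 36 h but transcribed in vitro at 72 h, so time and guide type cannot be told apart. In such bulk libraries, fewer cells of a kind and less RNA per cell cannot be told apart. P values measure the spread between the libraries of these plates, estimated over footprint and mRNA libraries together. Cells without electroporation were not analysed here.

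Iron-responsive elements are short hairpins in untranslated regions (UTRs) of mRNAs. When iron is scarce, IRP1 or IRP2 binds them: a hairpin in the 5′ UTR, as in both ferritin mRNAs and in the SLC40A1 mRNA, then keeps ribosomes from starting, whereas hairpins in the 3′ UTR of the TFRC mRNA protect it from decay. When iron is plentiful, IRP1 takes up an iron-sulfur cluster and works as the cytosolic aconitase, and IRP2 is degraded. Ferritin, which stores iron in a shell of heavy (FTH1) and light (FTL) chains, is thus a textbook case of a protein whose output is set at translation.

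The hairpins of 5 of these mRNAs are shown because they are what the proteins of the other 2 genes, ACO1 and IREB2, bind, and because the libraries did not measure them. The genes lie, in hg38, at chr11:61959718-61967634 (FTH1, minus strand), chr19:48965309-48966879 (FTL, plus), chr2:189560590-189583758 (SLC40A1, minus), chr3:196012511-196082153 (TFRC, minus), chr12:50979401-51028566 (SLC11A2, minus), chr9:32384603-32454769 (ACO1, plus) and chr15:78437431-78501453 (IREB2, plus). The UTRs of the transcripts with the highest counts were searched on the transcript strand for an unpaired C, 5 bases, the loop CAGTGN and 5 more bases, and the pairs between both runs of 5 bases (Watson-Crick or G with U) were counted. Windows of 30 bases from hg38 follow, written 5′ to 3′ on the strand of the gene, in which capitals mark the unpaired C and the loop.
FTH1, 5′ UTR, chr11:61967573-61967602, minus strand: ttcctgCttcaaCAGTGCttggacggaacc
FTL, 5′ UTR, chr19:48965335-48965364, plus strand: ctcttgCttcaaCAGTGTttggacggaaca
SLC40A1, 5′ UTR, chr2:189580660-189580689, minus strand: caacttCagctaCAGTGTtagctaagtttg
TFRC 1, 3′ UTR, chr3:196050978-196051007, minus strand: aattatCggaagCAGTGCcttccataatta
TFRC 2, 3′ UTR, chr3:196050574-196050603, minus strand: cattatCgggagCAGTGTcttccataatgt
TFRC 3, 3′ UTR, chr3:196050527-196050556, minus strand: ttttacCtaccaCAGTGTctgtatcggaga
TFRC 4, 3′ UTR, chr3:196050509-196050538, minus strand: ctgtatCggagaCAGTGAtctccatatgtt
TFRC 5, 3′ UTR, chr3:196050462-196050491, minus strand: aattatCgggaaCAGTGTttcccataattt
SLC11A2, 3′ UTR, chr12:50988268-50988297, minus strand: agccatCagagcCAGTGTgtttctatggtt

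All 5 pairs could form in the 5′ UTR windows of FTH1, FTL and SLC40A1 and in 4 of the 5 windows of TFRC. The window TFRC 3 allowed 3 pairs and overlapped TFRC 4. The 5′ UTR motifs of FTH1 and FTL lay at like places, 154 and 150 bases before the start codon, and that of SLC40A1 lay 206 bases before it. The SLC11A2 window allowed 4 pairs and lay 34 bases after the stop codon, and a further match in this 3′ UTR allowed 3. Of the 7 SLC11A2 transcripts with counts at 72 h, those named ENST00000547198, ENST00000547688 and ENST00000546743 lacked this window and had other 3′ UTRs. Matches in ACO1 (3 in its 3′ UTR of 4658 bases), in IREB2 (2 in 3310 bases) and in the 3′ UTR of FTH1 had between 1 and 4 pairs. Over all tested genes at 72 h, the motif without regard to pairs occurred in 6.12% of 5′ UTRs and in 36.5% of 3′ UTRs, which average 1907 bases. The same motif with all 5 pairs occurred in 0.107% of 5′ UTRs (11 of 10248) and in 0.827% of 3′ UTRs. On the opposite strand, which the mRNA does not contain, these last shares were 0.0683% and 0.660%. A match is a likeness of letters, and binding by IRP1 or IRP2 was not measured.

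**Figure D1:**
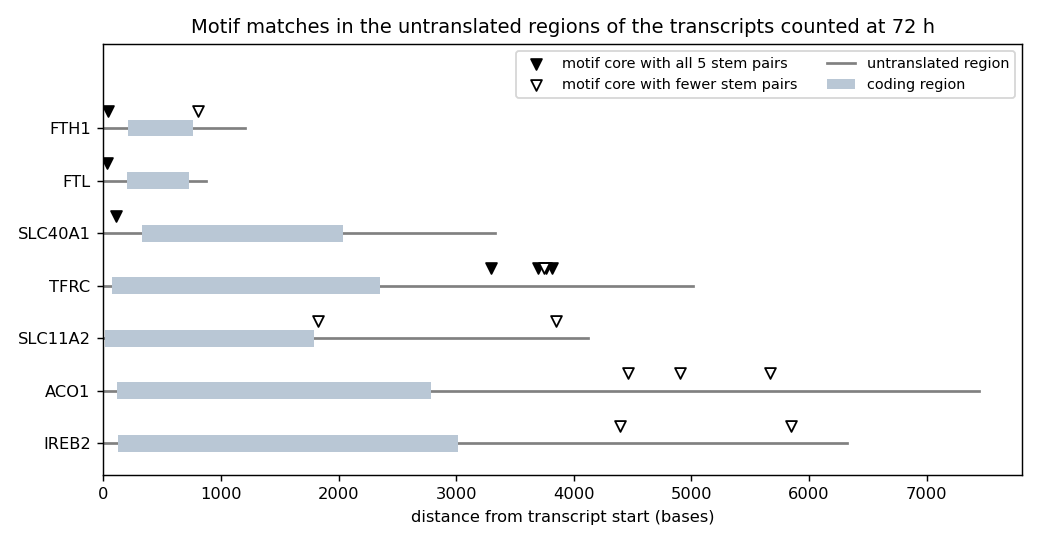
Transcripts of the 7 iron genes counted at 72 h, with the distance from the transcript start in bases on the x axis. Triangles stand over motif matches in the untranslated regions, filled where all 5 stem pairs can form: a match near the start of FTH1, FTL and SLC40A1, and 4 matches in the 3′ UTR of TFRC.

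The 36 h libraries held between 689636 and 4868580 footprint reads and from 25095505 to 33350952 mRNA reads over the chosen transcripts. At 72 h these totals were between 3183555 and 8864461 for footprints and from 33040296 to 42825667 for mRNA. The smallest libraries were the footprints of dCas9 replicate e and Cas9 replicate a at 36 h, in which FTH1 had 49 and 88 reads. The HEK293 marker VIM stood between 571 and 1018 normalised counts (CPM, scaled by library size) in mRNA, the neurofilament NEFL between 47.4 and 63.3, while PAX2 was at or below 0.305. ALB, APOA1, PTPRC and LYZ, which mark liver and blood cells, did not exceed 0.732 CPM in any mRNA library, while the globin HBA1 reached 1.58 and CD68 6.06. The summed level of the erythroid, liver and leukocyte markers ranged from 3.51 to 5.91 CPM in Cas9 mRNA and from 3.95 to 7.92 in dCas9 mRNA.

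Per kilobase of counted coding region, mRNA levels of dCas9 cells at 72 h fell into a steep order, here as mean CPM per kilobase. FTL stood at 749 ± 79.1 (SD, n = 2), FTH1 at 348 ± 32.4 and TFRC at 93.9 ± 8.84. Below them came IREB2 at 55.7 ± 17.2, ACO1 at 23.5 ± 0.539, SLC11A2 at 22.1 ± 1.78 and SLC40A1 at 2.39 ± 0.320. The storage protein mRNAs were thus the most abundant and that of the exporter the least. ACO1 and SLC11A2 did not differ beyond their spread, since the 4 mRNA libraries of 72 h gave 22.2 to 25.6 for ACO1 and 20.8 to 23.4 for SLC11A2. The order was the same in dCas9 mRNA at 36 h, with FTL at 919 ± 80.0 and SLC40A1 at 0.979 ± 0.296. In footprints at 72 h the ferritins stood side by side, at 186 ± 9.25 for FTL and 176 ± 9.77 for FTH1, ranges that overlapped, and TFRC followed at 109 ± 6.38.

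**Figure D2:**
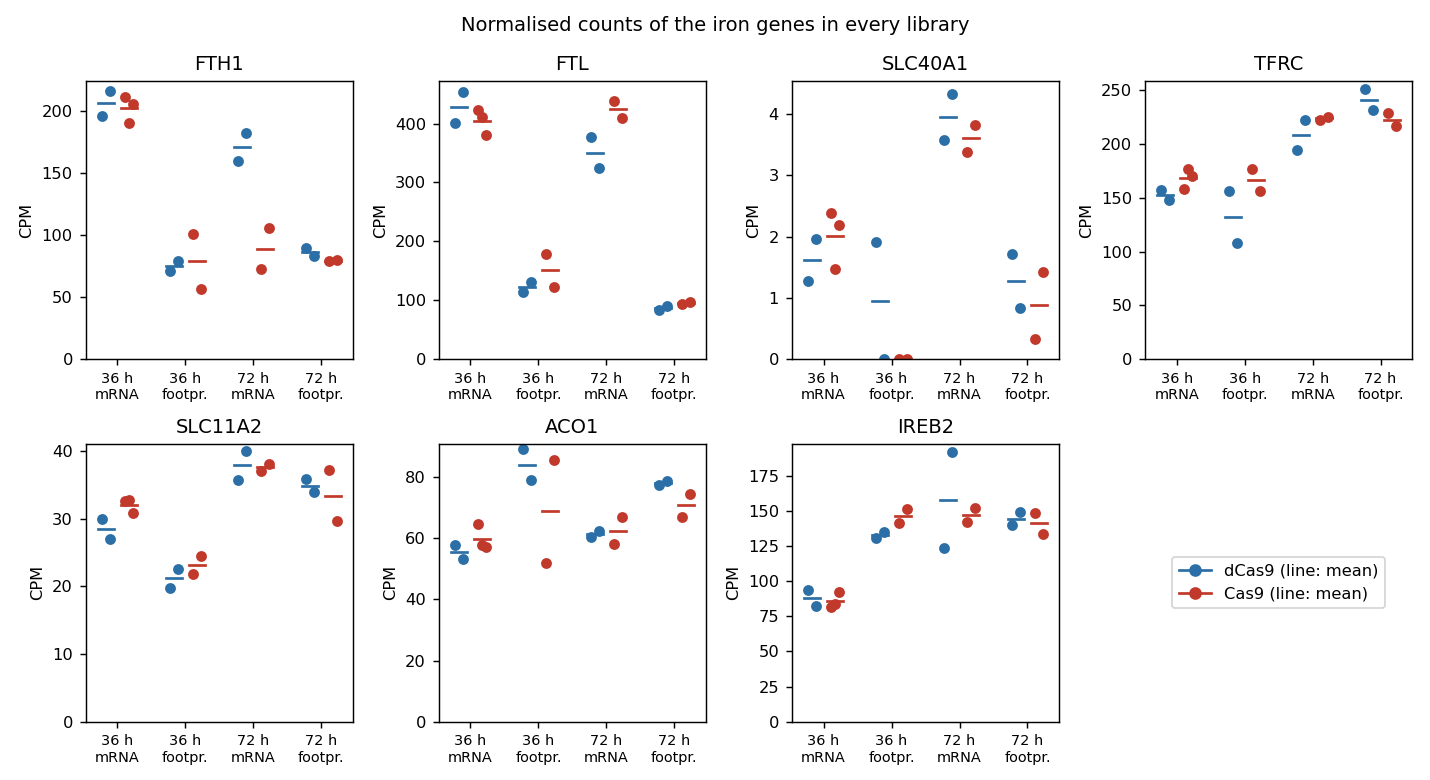
Normalised counts (CPM, linear axis from 0) of each iron gene in all 17 libraries, dCas9 in blue and Cas9 in red, with a line at the mean of each group of 2 or 3 libraries. FTH1 mRNA at 72 h is the panel position where the groups stand farthest apart, 72.7 and 106 CPM with Cas9 against 160 and 182 CPM with dCas9.

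The first comparison asked how densely these mRNAs were covered with ribosomes in dCas9 cells, relative to a typical gene. Per the paper, footprint and mRNA libraries were prepared by different methods. The ratio of a gene therefore also holds any difference in how these methods capture it, which replicates share and P values do not cover. Its part was not tested. FTL had the lowest coverage of the tested iron genes and FTH1 the next lowest, at both times. ACO1 lay above the typical gene at both times. At 36 h, FTL had 114 and 130 CPM in the dCas9 footprint libraries against 401 and 454 CPM in the mRNA libraries, and at 72 h it had 83.8 and 89.9 against 377 and 325. Its footprints fell below its mRNA in all dCas9 libraries, with no overlap.

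In edgeR's quasi-likelihood test, with P values adjusted after Benjamini and Hochberg and called below 0.1, the log2 ratio of footprints to mRNA of FTL was -1.84 (SE 0.166, adjusted P = 8.16e-07) at 36 h and -2.01 (SE 0.107, adjusted P = 2.07e-10) at 72 h. In linear terms FTL carried 3.58-fold and 4.03-fold fewer footprints per mRNA than the scale of the normalization sets for the typical gene. Only 230 of 9016 tested genes at 36 h and 288 of 10896 at 72 h had a lower ratio. The annotation used here, GENCODE 44, names 16 pseudogenes of FTL and 25 of FTH1. How footprint and mRNA reads that also fit such copies were placed is not given, so the ratios of both ferritins are uncertain to that extent. The part of these copies in the ratios was not tested.

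FTH1, whose product is the ferroxidase chain of ferritin, had 71.4 and 78.9 CPM in dCas9 footprints at 36 h against 197 and 217 CPM in mRNA. At 72 h the dCas9 footprints were 89.9 and 83.1 CPM and the mRNA 160 and 182 CPM. These groups did not overlap either, but the gap was smaller at 72 h. The log2 ratio was -1.49 (SE 0.206, adjusted P = 5.10e-05, edgeR) at 36 h and -0.98 (SE 0.149, adjusted P = 2.67e-05) at 72 h, and 1754 of 10896 genes lay lower at 72 h.

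Among the genes on the other side of this control, ACO1 had 89.0 and 78.9 CPM in dCas9 footprints against 57.8 and 53.1 CPM in mRNA at 36 h, and 77.5 and 78.6 against 60.3 and 62.3 at 72 h. Its footprints were above its mRNA in every dCas9 library. The log2 ratios were 0.62 (SE 0.218, adjusted P = 0.0340, edgeR) and 0.35 (SE 0.120, adjusted P = 0.0183). With the replicate as a block, which ties footprints and mRNA of a lysate together at 36 h, the ACO1 value was 0.60 with an adjusted P of 0.147. The 36 h call was also lost without mRNA replicate d (0.68, adjusted P = 0.103), mRNA replicate e (0.56, adjusted P = 0.182) or footprint replicate d (0.51, adjusted P = 0.207) of dCas9.

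IREB2 had 131 and 135 CPM in dCas9 footprints against 93.5 and 82.3 CPM in mRNA at 36 h, a log2 ratio of 0.59 (SE 0.160, adjusted P = 0.00877, edgeR). At 72 h, footprints of 140 and 149 CPM lay between the mRNA values of 123 and 192 CPM, and the ratio was -0.13 (SE 0.155, adjusted P = 0.488). The mRNA libraries stood apart at 72 h, and without dCas9 mRNA replicate a the ratio was -0.34 (adjusted P = 0.00907), and without replicate b it was 0.23 (adjusted P = 0.0793). The direction for IREB2 at 72 h therefore rested on which library was kept.

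TFRC, which brings transferrin-bound iron into the cell, had 156 and 108 CPM in dCas9 footprints against 157 and 148 CPM in mRNA at 36 h, a log2 ratio of -0.14 (SE 0.166, adjusted P = 0.530). At 72 h it had 252 and 232 CPM in footprints against 195 and 223 CPM in mRNA, a ratio of 0.21 (SE 0.0999, adjusted P = 0.0760) that passed the threshold narrowly. It did not pass without dCas9 mRNA replicate a (0.19, adjusted P = 0.106), footprint replicate e (0.15, adjusted P = 0.361) or footprint replicate f (0.27, adjusted P = 0.105), and at 36 h it passed as lower without dCas9 footprint replicate d (-0.50, adjusted P = 0.0705). SLC11A2, which moves ferrous iron across membranes, had 19.8 and 22.5 CPM in footprints and 29.9 and 27.0 CPM in mRNA of dCas9 cells at 36 h, and the ratio was -0.47 (SE 0.276, adjusted P = 0.190). At 72 h its footprints of 35.9 and 33.8 CPM overlapped the mRNA values of 35.7 and 40.0 CPM, with a ratio of -0.12 (SE 0.143, adjusted P = 0.471).

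In all, 4 of the 6 tested iron genes passed the test at 36 h, with 2 higher (ACO1, IREB2) and 2 lower (FTL, FTH1), where 48.2% of all tested genes did (23.6% higher and 24.6% lower). At 72 h 4 of 6 passed, with 2 higher (ACO1, TFRC) and the ferritins lower, where 70.6% of all genes did (32.7% higher and 37.8% lower). With 6 genes, these shares are too coarse to set the iron genes apart from genes at large at either time, and no test compared them. The median ratio of the 6 genes was -0.31 at 36 h and -0.12 at 72 h, beside -0.01 and -0.06 over all genes. Scaling by library totals in place of TMM factors moved the ratios of these genes by a median of -0.12 at 36 h (-0.13 to -0.12) and of -0.15 at 72 h. Under it the ferritins kept their calls, TFRC (0.06, adjusted P = 0.633) and ACO1 (0.19, adjusted P = 0.173) lost theirs at 72 h, and SLC11A2 at 36 h gained one (-0.59, adjusted P = 0.0997).

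**Figure D3:**
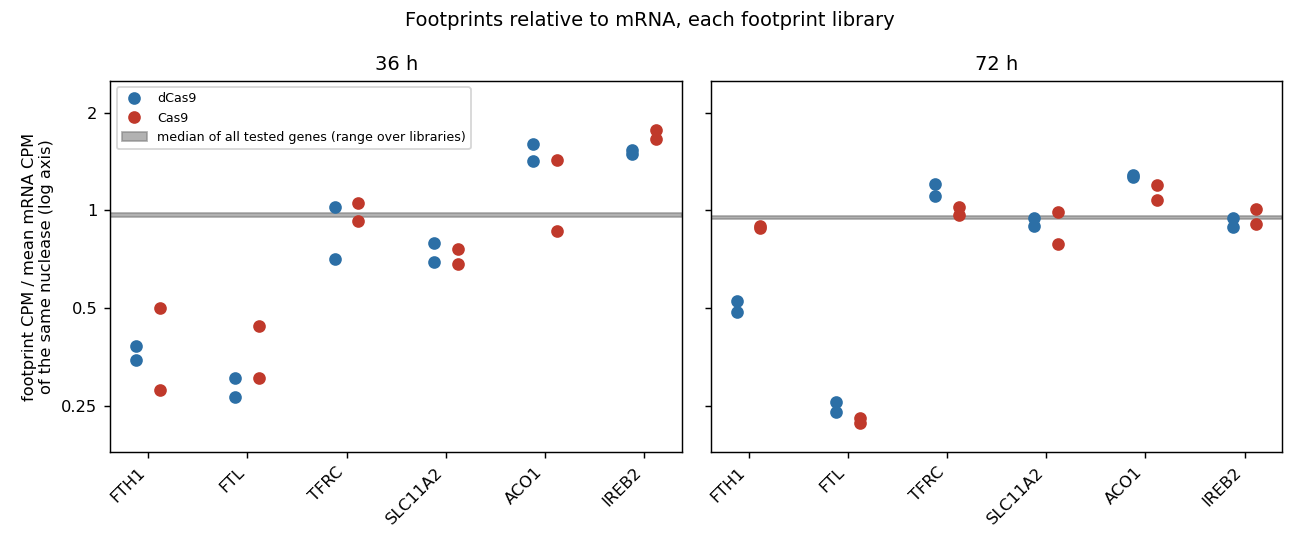
Footprints over mRNA for the 6 tested iron genes, with each point a footprint library (CPM divided by the mean mRNA CPM of the same nuclease and time, log axis) and a grey band at the median of all tested genes. FTL stays between 0.222 and 0.256 in the 4 libraries of 72 h, whereas FTH1 is at 0.486 and 0.526 with dCas9 and at 0.884 and 0.892 with Cas9.

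Low coverage was not common to all tested genes with such a motif. At 72 h, 9 other tested genes held the motif with all 5 pairs in the 5′ UTR of their counted transcript, and the median of their log2 ratios was 0.43. Of these 9, 5 were called higher and 3 lower, where 32.7% and 37.8% of all genes were. At 36 h there were 8 such genes with a median of 0.03, of which 1 was called higher and 1 lower, where 23.6% and 24.6% of all genes were. Among them DUSP9, a phosphatase of MAP kinases, was at 0.62 (SE 0.181, adjusted P = 0.00696, edgeR) and PRPF18, a splicing factor, at -0.62 (SE 0.186, adjusted P = 0.00831), the lowest of the 9, both named after their values were seen. The ferritins were the lowest of the 11 tested genes with such a match at 72 h. SLC40A1, which also has one, was below the count minimum and is not among them.

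SLC40A1, the only known cellular exporter of iron, stayed below the count minimum and was not tested. Its mRNA had between 33 and 78 reads in the 5 libraries of 36 h and from 122 to 193 reads in the 4 libraries of 72 h. Its footprints at 36 h numbered 9 in dCas9 replicate d and 0 in dCas9 e, Cas9 a and Cas9 c, which with 3 counts as the limit allows up to 4.83, 3.45 and 1.29 CPM in these 3 libraries. Such limits cover counting error only. At 72 h it had 11 and 7 footprints with dCas9 and 1 and 8 with Cas9. In CPM, its dCas9 footprints at 72 h were 1.72 and 0.837 against 3.58 and 4.33 for mRNA, so they lay lower without overlap. When the count minimum was dropped, the 72 h ratio in dCas9 cells was -1.66 (SE 0.401, adjusted P = 1.15e-04, edgeR), and the 36 h ratio was -0.10 (SE 1.21, adjusted P = 1.000), an error too wide to show a difference.

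The second set of comparisons asked what the cut changed, by setting Cas9 against dCas9 at each time. No iron gene passed the test 36 h after electroporation, in footprints, in mRNA or in translational efficiency (the change in footprints minus the change in mRNA). At 72 h a single value passed, the fall of FTH1 mRNA. Footprints of the tested iron genes stayed within 0.14 log2 units of dCas9 at that time.

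FTH1 mRNA at 72 h stood at 72.7 and 106 CPM in Cas9 replicates a and b and at 160 and 182 CPM in dCas9 replicates a and b. Both Cas9 libraries lay below both dCas9 libraries. The mean fell from 171 ± 15.9 CPM (SD, n = 2) with dCas9 to 89.2 ± 23.4 with Cas9, 1.92-fold lower, or -0.94 on the log2 scale (SE 0.144, adjusted P = 0.00185, edgeR). It ranked 44 by P among 10896 genes, of which 5.63% passed in this comparison, 5.20% lower and 0.422% higher. This background of 613 genes was itself unsteady, with 110 genes called without Cas9 mRNA replicate a and 2472 without dCas9 mRNA replicate b. The call held in all alternatives tried, between -0.71 without Cas9 mRNA replicate a and -1.26 without Cas9 mRNA replicate b, with adjusted P of 0.0281 at most.

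All 6 FTH1 transcripts listed at 72 h had less mRNA with Cas9, at ratios of mean CPM between 0.396 and 0.531, though a read that fits several transcripts counts on each of them. In footprints ENST00000529631 and ENST00000529191 were higher with Cas9, at 11.5 against 9.56 CPM. The remaining FTH1 transcripts were lower in footprints, at ratios between 0.881 and 0.916. GENCODE 44 names 25 pseudogenes of FTH1 and 16 of FTL, and how reads that also fit such copies were placed is not given in the sources used here, so the ferritin counts are uncertain to that extent. Their part in the FTH1 value was not tested. The GC content of coding regions correlated with the mRNA fold change over all genes at 72 h (rank correlation -0.42), and FTH1, at 49.1% GC, lay near the median of 51.6%. With the GC dependence of each library removed, an alternative chosen after seeing the data, FTH1 mRNA was at -0.94 (adjusted P = 1.40e-05), and FTL mRNA at 0.36 (adjusted P = 0.00135) and IREB2 mRNA at -0.27 (adjusted P = 0.0412) also passed.

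FTH1 footprints at 72 h fell by less than the mRNA, a difference that did not pass its own test. They were 78.9 and 79.6 CPM with Cas9 against 89.9 and 83.1 CPM with dCas9, a log2 change of -0.13 (SE 0.160, adjusted P = 1.000, edgeR). Both Cas9 values lay below both dCas9 values, but by little. The difference, as translational efficiency, was 0.81 (SE 0.215) or 1.76-fold higher, with an unadjusted P of 0.00162 and an adjusted P of 0.137, which missed the threshold. In 10 of 18 alternatives this value passed, among them DESeq2 (0.83, adjusted P = 0.0201) and the block on replicate letters (0.84, adjusted P = 0.0905), and over all of them the adjusted P ran from 6.66e-04 without Cas9 mRNA replicate b to 0.551 without Cas9 mRNA replicate a. No other iron gene passed, and FTH1 alone had an unadjusted P below 0.05. Among all genes 0.716% passed in this comparison, 0.698% higher and 0.0184% lower, and these 78 genes became 1 to 1065 when a library was left out.

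FTL moved the other way in mRNA. It had 439 and 410 CPM with Cas9 against 377 and 325 CPM with dCas9 at 72 h, so both Cas9 libraries were higher. The log2 change of 0.28 (SE 0.0990, adjusted P = 0.158, edgeR) did not pass. Without dCas9 mRNA replicate a it was 0.40 (adjusted P = 0.0193). FTL footprints were 94.1 and 97.1 CPM with Cas9 and 83.8 and 89.9 CPM with dCas9, higher in all 4 pairs, at 0.14 (SE 0.112, adjusted P = 1.000).

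Within a library, the ratio of the ferritin chains does not depend on scaling between libraries. FTH1 over FTL, per kilobase, was between 0.441 and 0.515 in the 5 mRNA libraries of 36 h. At 72 h it was 0.403 and 0.535 with dCas9 and 0.157 and 0.246 with Cas9, so that both Cas9 libraries fell below all other mRNA libraries. In footprints the ratio was between 0.437 and 0.596 at 36 h, 1.02 and 0.879 with dCas9 at 72 h, and 0.797 and 0.780 with Cas9 at 72 h. Fewer chains of one kind and more of the other cannot be separated by such a ratio.

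**Figure D4:**
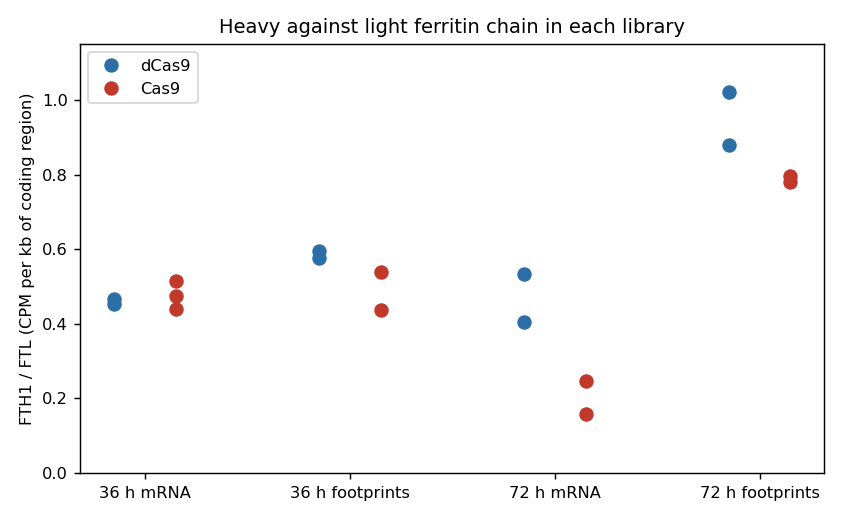
FTH1 over FTL (CPM per kilobase of coding region, linear axis from 0) in each of the 17 libraries, dCas9 in blue and Cas9 in red. The mRNA points of Cas9 at 72 h lie at 0.157 and 0.246, under the range of 0.403 to 0.535 spanned by the other 7 mRNA libraries.

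The remaining genes showed no such departure at 72 h. TFRC mRNA was 223 and 225 CPM with Cas9 against 195 and 223 CPM with dCas9 (log2 fold change 0.10, SE 0.0984, adjusted P = 0.628, edgeR), and its footprints of 229 and 217 CPM lay below the 252 and 232 CPM of dCas9 (-0.12, SE 0.103, adjusted P = 1.000). The transferrin receptor thus had groups that did not overlap in footprints but stood close together. IREB2 mRNA was 142 and 152 CPM with Cas9, between the 123 and 192 CPM of dCas9 (-0.10, SE 0.152, adjusted P = 0.762), and its footprints of 149 and 134 CPM overlapped the 140 and 149 CPM of dCas9. Without dCas9 mRNA replicate a, IREB2 mRNA was at -0.37 (adjusted P = 0.0439). Its dCas9 mRNA libraries had the widest spread of these genes at 72 h, with an SD of 48.7 CPM.

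ACO1 mRNA was 58.0 and 66.9 CPM with Cas9 at 72 h, on both sides of the 60.3 and 62.3 CPM with dCas9 (0.03, SE 0.116, adjusted P = 0.929, edgeR). Its footprints were 66.9 and 74.6 CPM with Cas9, below the 77.5 and 78.6 CPM with dCas9 (-0.13, SE 0.129, adjusted P = 1.000). SLC11A2 had 37.0 and 38.1 CPM in Cas9 mRNA, within the 35.7 and 40.0 CPM of dCas9, and 37.1 and 29.6 CPM in Cas9 footprints, around the 35.9 and 33.8 CPM of dCas9. Neither gene thus moved beyond the spread of its libraries in mRNA. Of the 6 tested genes, 0 passed in footprints at 72 h, where 0% of all genes did, with 396 genes but no iron gene at an unadjusted P below 0.05 and 0 calls by DESeq2.

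**Figure D5:**
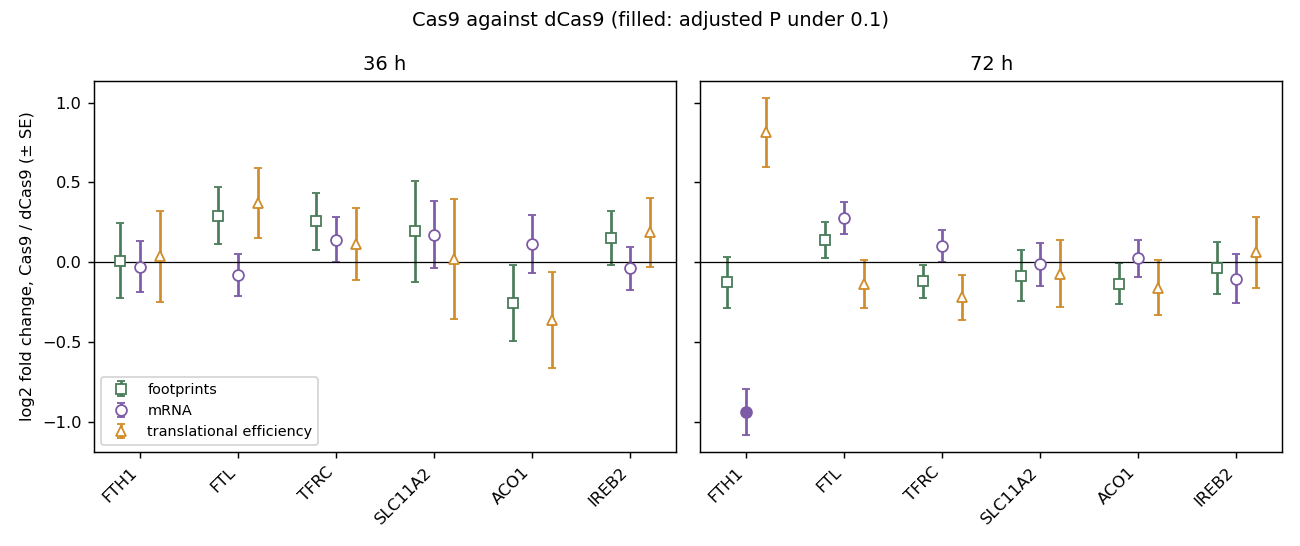
Log2 fold change of Cas9 over dCas9 (± SE from the edgeR fit) at 36 and 72 h for footprints (squares), mRNA (circles) and translational efficiency (triangles) of the 6 tested iron genes, filled where the adjusted P is under 0.1. FTH1 mRNA at 72 h, at -0.94, is the only filled symbol, and the FTH1 footprints beside it are at -0.13.

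At 36 h the ferritin mRNAs were alike in both nucleases. FTH1 mRNA was 211, 191 and 206 CPM in Cas9 replicates a, b and c and 197 and 217 CPM in dCas9 replicates d and e (log2 fold change -0.03, SE 0.160, adjusted P = 1.000, edgeR). FTL mRNA was 423, 411 and 381 CPM with Cas9 and 401 and 454 CPM with dCas9 (-0.08, SE 0.131, adjusted P = 1.000). The groups overlapped for both chains.

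Footprints at 36 h overlapped between the nucleases for FTH1, FTL, ACO1 and SLC11A2. FTH1 had 101 and 56.6 CPM with Cas9 on either side of the 71.4 and 78.9 CPM with dCas9, and ACO1 had 51.8 and 85.7 against 89.0 and 78.9. FTL had 178 and 123 CPM with Cas9 against 114 and 130 with dCas9 (0.29, SE 0.179, adjusted P = 0.618, edgeR). TFRC footprints of 177 and 156 CPM with Cas9 lay at or above the 156 and 108 CPM with dCas9 (0.26, SE 0.178, adjusted P = 0.667). IREB2 footprints of 142 and 151 CPM lay above the 131 and 135 CPM of dCas9 (0.15, SE 0.170, adjusted P = 0.812).

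The other mRNA values at 36 h ran from -0.04 for IREB2 to 0.17 for SLC11A2. TFRC and SLC11A2 mRNA stood higher in every Cas9 library than in every dCas9 library, at adjusted P of 1.000 for both. Translational efficiency at 36 h ran from -0.36 for ACO1 to 0.37 for FTL, with adjusted P of 0.836 or more. In each of these 3 comparisons at 36 h, 0 of 6 iron genes and 0% of 9016 genes passed in edgeR. No iron gene had an unadjusted P below 0.05, while 862 genes did for footprints, 26 for mRNA and 568 for translational efficiency, and DESeq2 called 46, 0 and 1 genes, none of them an iron gene. Without dCas9 footprint replicate d, 918 genes passed in footprints and 474 in translational efficiency, and without Cas9 footprint replicate c 323 passed in footprints.

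Whether the effect of Cas9 differed between 36 and 72 h was tested in a fit over all 17 libraries. For FTH1 mRNA the effect was 0.90 log2 units lower at 72 h (-0.90, SE 0.230), with an unadjusted P of 7.80e-04 and an adjusted P of 0.125, so that it did not pass. In 9 of 23 alternatives it did, among them DESeq2 (-0.92, adjusted P = 0.00997), and without Cas9 mRNA replicate a of 72 h it was -0.66 (adjusted P = 1.000). FTL mRNA was at 0.36 (SE 0.169, adjusted P = 0.686). The TFRC footprint effect was at -0.36 (SE 0.201, adjusted P = 0.662), and without dCas9 footprint replicate d of 36 h it was -0.74 (adjusted P = 0.0587). In each of the 3 measures 0 of 6 iron genes passed in edgeR, where 0.0223% of all genes did for footprints, 0.524% for mRNA and 0.0111% for translational efficiency. At an unadjusted P below 0.05 there were 0, 2 and 0 iron genes, and DESeq2 called 0, 1 and 0.

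A further 78 genes of iron metabolism were examined as lists: other mRNAs described to carry an iron-responsive element, iron sensing and ferritin turnover, iron and heme transport, iron-sulfur cluster assembly, and heme synthesis. Of these, 59 were tested at 36 h and 66 at 72 h. In edgeR 0 passed in footprints, mRNA or translational efficiency at 36 h, where 10, 0 and 6 had an unadjusted P below 0.05, and 0 passed in footprints at 72 h, where 2 did. DESeq2 also called 0 in these 4 comparisons. In mRNA at 72 h 3 of 66 were lower and 0 higher, at a median of 0.09 beside 0.02 over all genes, of which 5.20% were lower and 0.422% higher. In translational efficiency 1 of 66 was higher, where 0.698% of all genes were. DESeq2 called 4 in mRNA and 3 in translational efficiency.

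PCBP1, an iron chaperone that delivers iron to ferritin, had 43.9 and 54.9 CPM in Cas9 mRNA against 85.4 and 89.9 CPM in dCas9 mRNA at 72 h. The groups did not overlap, and the log2 value for Cas9 over dCas9 was -0.83 (SE 0.106, adjusted P = 8.21e-04, edgeR). Its footprints were 521 and 516 CPM with Cas9 and 532 and 532 CPM with dCas9, and translational efficiency was 0.79 (SE 0.149, adjusted P = 0.0410). PCBP1 thus shared with FTH1 lower mRNA beside footprints that changed little, though the translational efficiency of FTH1 did not pass. This likeness was not particular to these genes, since 5.20% of all genes were called lower in mRNA at 72 h and 0% were called in footprints. DESeq2 also called PCBP1 in mRNA and in translational efficiency. Neither value was examined with a library left out or with the GC dependence removed.

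LRP1, a receptor that takes up heme bound to hemopexin, had 9.75 and 13.0 CPM in Cas9 mRNA against 17.4 and 19.6 CPM with dCas9 at 72 h (-0.70, SE 0.164, adjusted P = 0.0246, edgeR). Again both Cas9 libraries lay below both dCas9 libraries. Its footprints went the other way without overlap, at 36.2 and 38.8 CPM with Cas9 against 30.0 and 33.1 CPM with dCas9, and did not pass. DESeq2, but not edgeR, called its translational efficiency. No LRP1 value was examined with a library left out or with the GC dependence removed. The 22 tested genes of iron-sulfur cluster assembly at 36 h and 26 at 72 h gave 0 calls by edgeR in any comparison of Cas9 with dCas9. At an unadjusted P below 0.05 this list held 5, 0 and 2 genes in footprints, mRNA and translational efficiency at 36 h and 1, 4 and 0 at 72 h, and DESeq2 called 1 gene of it, in mRNA at 72 h.

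Between footprints and mRNA of dCas9 cells, 17 of these 59 genes were higher and 11 lower at 36 h, where 23.6% and 24.6% of all genes were. At 72 h 27 of 66 were higher and 19 lower, where 32.7% and 37.8% of all genes were. PCBP1 stood farthest up, with log2 ratios of 2.84 (SE 0.146) and 2.60 (SE 0.110), followed by PCBP2, a related iron chaperone, at 2.16 and 2.03. TMEM14C, a mitochondrial carrier of heme synthesis, was at 1.69 and 1.65. CIAO2A, a targeting factor of cytosolic iron-sulfur assembly, was at -2.25 and -2.18, and UROS, an enzyme of heme synthesis, was at -2.87 at 72 h. HERC2, a ubiquitin ligase that acts on the ferritin receptor NCOA4, was at -1.31 at 36 h. FTL at -1.84 and -2.01 thus lay within the range of other iron genes.

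Among the other described carriers of an iron-responsive element, CDC42BPA, a kinase of the cytoskeleton, had 18.4 and 24.4 CPM in Cas9 footprints at 36 h against 38.0 and 69.2 CPM in dCas9 footprints (-1.08, SE 0.315, adjusted P = 0.400, edgeR). EPAS1, which encodes the hypoxia factor HIF-2 alpha and has a hairpin in its 5′ UTR, had 25.3 and 36.4 CPM in Cas9 footprints against 15.3 and 3.22 CPM in dCas9 footprints (1.40, SE 0.490, adjusted P = 0.416), and the lowest of these values rested on 2 reads. Neither passed, although both had an unadjusted P below 0.05. At 72 h their footprint fold changes were -0.13 and 0.05. PFN2 and, at 72 h, CDC14A were at adjusted P of 0.533 or more in footprints, mRNA and translational efficiency.

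Over the 17 libraries, after the mean of each time and library type was subtracted from log2(CPM + 1), the genes most like FTH1 among 8970 were UBAP2 (Pearson correlation 0.94) and SEPHS2 (0.91). For FTL they were SIVA1 (0.95) and LRP11 (0.93), and for TFRC NBAS (0.97) and RGPD3 (0.96). These values describe libraries that share lysates and depths, and the highest of so many correlations is high by selection.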

How the data were processed

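Ribosome footprints and mRNA of HEK293 cells were sequenced at 36 and 72 h. The deposited values are raw read counts per transcript, which the authors made from alignments to GRCh38 with hisat2 at 36 h and tophat at 72 h, with different GENCODE annotations and the fp-count program. The submitters' processing notes list HISAT2 2.1.0. Reads that fit several transcripts count on each, so 1 transcript per gene, the one with most counts, was used here. Of the transcripts listed, 25338 of 26679 at 36 h and 94799 of 98334 at 72 h matched GENCODE 44 and were given its gene names. The footprint library of Cas9 replicate b at 36 h was not analysed here.

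Genes averaging 20 counts or more both over footprint libraries and over mRNA libraries were fitted with edgeR 4.0.16 in R 4.3.3 (TMM factors, quasi-likelihood test, 1 mean per nuclease and library type), separately at each time and jointly over 17 libraries for the difference between times, with Benjamini-Hochberg adjustment and a false discovery rate of 0.1. Normalised counts (CPM) use the TMM-scaled totals. The SE is the log2 fold change divided by the root of the F statistic. The edgeR fits were also run on data simulated with the same spread for every gene and library type. That run cannot show how the fits behave where the spread differs between genes or library types. The genes and gene lists were chosen with earlier results of these data known. Named were the 7 genes, each described carrier of an iron-responsive element with counts, from the other iron lists up to 5 genes per comparison with the smallest adjusted P, and for FTH1, FTL and TFRC the 2 genes of highest correlation. Some genes that this rule names are not reported here.

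Alternatives were DESeq2 1.42.0, median-ratio size factors, library totals without TMM factors, no count minimum, filterByExpr, the longest transcript, the transcript chosen at 36 h, each library type alone, each library left out, and a replicate block. Per the paper, lysates were split between footprint and mRNA libraries at both times. At 36 h the letter pairs these libraries, although deviations from group means correlated at only 0.0138 to 0.0790. At 72 h footprints and mRNA carry different letters, so which of them shared a lysate is not known and no test used that pairing. Removal of the GC dependence and a block with crossed mRNA letters were chosen after seeing the data.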

Additional observations from a re-analysis of the deposited data

Results flagged for a closer look

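Among the genes named, PCBP1 mRNA was the value whose Cas9 effect differed between the times by its own test. The effect at 72 h minus that at 36 h was -0.86 on the log2 scale (SE 0.171, adjusted P = 0.0318, edgeR). DESeq2 called this PCBP1 value too, but it was not examined with a library left out. At 36 h PCBP1 mRNA was between 102 and 119 CPM with Cas9 and between 97.1 and 118 CPM with dCas9, ranges that overlapped, and at 72 h both Cas9 libraries lay below both dCas9 libraries. The time points also differed in guide type, aligner and annotation, which cannot be told apart from time.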

How the results depend on the processing

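Over 66 results of the 6 tested iron genes and 1242 alternative values, 1153 kept their direction and side of the threshold, 36 changed side, 50 that passed in neither case changed sign, 2 had no adjusted P in DESeq2, and 1 reversed: the IREB2 ratio of footprints to mRNA at 72 h, at 0.23 without dCas9 mRNA replicate b, against -0.13 with all libraries and -0.34 without replicate a. The fall of FTH1 mRNA at 72 h passed in all 19 alternatives. The number of iron genes called in mRNA at 72 h was 1, and 3 with the GC dependence removed, and ranged from 1 to 3 when a library was left out. In translational efficiency at 72 h it was 0, and 1 (FTH1) with DESeq2, median-ratio size factors, library totals, no count minimum, the replicate block, the crossed block and the GC dependence removed, and ranged from 0 to 1 when a library was left out. The ratio of footprints to mRNA at 72 h gave 4, and 2 with library totals. For the difference between times, mRNA gave 0, and 1 with DESeq2, median-ratio size factors, library totals and no count minimum, with 0 to 1 when a library was left out, and footprints gave 0 to 1. The causes were not tested.

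Over all genes, mRNA at 72 h gave 613 calls, 293 with each library type alone and 1956 with the GC dependence removed, and 110 to 2472 when a library was left out. Translational efficiency at 72 h gave 78, 221 with DESeq2, 170 with median-ratio size factors, 126 with library totals, 260 with no count minimum and 579 with the GC dependence removed, 1 to 3 without any 1 of the footprint libraries and 29 to 1065 without an mRNA library. The difference between times gave 47 in mRNA, 179 with DESeq2, 71 with median-ratio size factors and 77 with library totals, and 1 to 89 when a library was left out. For footprints it gave 2, 21 with DESeq2 and 0 with library totals, no count minimum or filterByExpr, and for translational efficiency 1, and 35 with DESeq2, while leaving out a library gave 0 to 941 (without dCas9 footprints 36 h replicate d) and 0 to 796. Footprints at 36 h gave 0, 46 with DESeq2, 21 with no count minimum and 1 with the GC dependence removed, and 0 to 918 when a library was left out. For mRNA at 36 h no count minimum and each library type alone gave 2 against 0, for translational efficiency at 36 h DESeq2 gave 1 against 0 and leaving out a library 0 to 474, and footprints at 72 h gave 0 to 4. With library totals, the calls of the footprint to mRNA ratio were 1734 higher of 4383 at 36 h and 2868 of 7732 at 72 h, against 2125 of 4344 and 3566 of 7688.

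With the replicate block, mRNA at 72 h gave 535 calls, translational efficiency 88, and the ratio at 36 h 3169. The difference between times in translational efficiency gave 2. Apart from FTH1 translational efficiency and the ACO1 ratio at 36 h, the block changed no call of an iron gene. At 72 h same-lettered libraries shared only a letter, with correlations of deviations of 0.0158 for footprints and -0.153 for mRNA, and with the mRNA letters crossed 1133 and 249 genes were called in mRNA and translational efficiency. The block could not be fitted for footprints or mRNA at 36 h, for the ratio at 72 h or for the difference between times in either library type. Depth limited SLC40A1, with at most 11 footprints in a library, and the smallest footprint libraries of 36 h.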
